A study of Drosophila melanogaster with 2 samples.

Results

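The regions described here are the 897 binding peaks of tagged org-1 that lay in introns, more than 2000 bp and at most 10000 bp from the nearest start of a protein-coding transcript. They were chosen by position alone from a list of 4434 peaks, of which they made up 20.2% (exact binomial 95% interval 19.1 to 21.4%). A peak was kept when its summit, the base of highest signal that the authors recorded, fell inside a protein-coding gene but in no exon of any protein-coding gene. The assay was chromatin immunoprecipitation followed by sequencing (ChIP-seq), in which DNA bound by a protein is pulled down with an antibody and sequenced. There was 1 group, in 2 biological replicates. It consisted of whole Drosophila melanogaster embryos of both sexes, collected between 2 and 24 hours of age, from a transgenic line that stably expresses org-1 carrying GFP (green fluorescent protein) at the C terminus. Per the description the antibody was against GFP, whereas the antibody field names org-1. Neither replicate lacked the transgene, so no condition could be compared. Whole embryos mix all tissues and stages, and a peak cannot be assigned to a cell type.

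Org-1 belongs to the T-box transcription factors, proteins that read a short DNA word through the T-box domain. In the fly embryo it is known from founder cells of particular body-wall muscles, from the visceral mesoderm that forms the gut musculature and from the alary muscles that hold the heart. In body-wall muscles it acts with slou and the ladybird genes lbe and lbl in fixing which muscle a founder cell makes. Introns of fly genes often hold enhancers, stretches of DNA where transcription factors bind and raise or lower transcription of the gene from a distance. The position of a peak in an intron says where binding signal was found and not which gene responds to it.

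The sequences that the peaks hold are shown first, because the words at the summits were compared in detail. Each sequence spans the summit and 50 bases to either side, on the plus strand of dm6, read 5′ to 3′ from the RefSeq copy of genome release 6. Capitals mark any match, on either strand, to the T-box core AGGTGTG, the forkhead core TGTTTA, the GATA core GATAA or the TATA word TATAAA. Overlapping matches run together. The 8 strongest of the peaks that could be shown are given first, since they carry the highest signal.
Tlk chrX:3742182-3742282: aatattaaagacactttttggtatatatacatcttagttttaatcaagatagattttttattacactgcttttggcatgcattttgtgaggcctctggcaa
Raf chrX:2297665-2297765: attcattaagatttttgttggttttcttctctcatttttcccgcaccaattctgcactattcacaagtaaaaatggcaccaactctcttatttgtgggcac
CG32486 chr3L:3060759-3060859: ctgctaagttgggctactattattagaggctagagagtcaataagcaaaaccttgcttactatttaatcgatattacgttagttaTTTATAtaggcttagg
simj chr3L:10682974-10683074: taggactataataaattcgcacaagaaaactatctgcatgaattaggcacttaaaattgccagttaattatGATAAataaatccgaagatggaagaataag
Gug chr3L:8458263-8458363: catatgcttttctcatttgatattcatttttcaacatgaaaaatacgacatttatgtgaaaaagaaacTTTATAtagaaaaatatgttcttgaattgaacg
trx chr3R:14283834-14283934: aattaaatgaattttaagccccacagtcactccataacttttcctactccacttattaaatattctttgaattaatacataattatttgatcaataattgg
Raf chrX:2300645-2300745: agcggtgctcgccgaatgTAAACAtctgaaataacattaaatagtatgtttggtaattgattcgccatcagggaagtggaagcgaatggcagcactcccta
Smr chrX:12735691-12735791: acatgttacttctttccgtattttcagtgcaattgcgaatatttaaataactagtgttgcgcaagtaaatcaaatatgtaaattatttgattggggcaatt
The strongest peak in each of 6 genes of the muscle and mesoderm lists is shown next, because these are the tissues in which org-1 is known to act.
kirre chrX:3097145-3097245: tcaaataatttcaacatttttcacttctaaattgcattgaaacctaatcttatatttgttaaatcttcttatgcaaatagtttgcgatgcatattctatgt
how chr3R:22049276-22049376: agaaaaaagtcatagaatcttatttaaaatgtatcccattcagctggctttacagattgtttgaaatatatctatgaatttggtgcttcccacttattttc
siz chr3L:21053971-21054071: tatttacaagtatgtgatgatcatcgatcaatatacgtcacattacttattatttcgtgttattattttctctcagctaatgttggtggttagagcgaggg
Fas3 chr2L:18325271-18325371: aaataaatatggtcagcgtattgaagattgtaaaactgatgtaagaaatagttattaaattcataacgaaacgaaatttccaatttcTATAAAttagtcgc
Abd-B chr3R:16958164-16958264: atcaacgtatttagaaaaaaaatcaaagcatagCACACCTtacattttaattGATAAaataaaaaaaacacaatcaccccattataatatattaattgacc
mbc chr3R:23784102-23784202: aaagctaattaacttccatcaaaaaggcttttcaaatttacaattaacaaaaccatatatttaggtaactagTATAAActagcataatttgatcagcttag
The last set adds 4 more peaks that held the T-box core, the word that the protein family is known to bind. The Abd-B peak above held it as well, and a peak in luna that held it is not shown.
Pgant5 chr2L:5087243-5087343: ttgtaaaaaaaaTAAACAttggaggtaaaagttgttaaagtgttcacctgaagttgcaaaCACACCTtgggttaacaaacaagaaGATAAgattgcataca
Smr chrX:12738001-12738101: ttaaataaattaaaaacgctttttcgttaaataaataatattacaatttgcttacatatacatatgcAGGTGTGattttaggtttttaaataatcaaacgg
CG6051 chr3R:27131491-27131591: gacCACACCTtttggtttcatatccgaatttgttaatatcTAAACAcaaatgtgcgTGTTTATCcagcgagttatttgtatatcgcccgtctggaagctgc
sdt chrX:8202899-8202999: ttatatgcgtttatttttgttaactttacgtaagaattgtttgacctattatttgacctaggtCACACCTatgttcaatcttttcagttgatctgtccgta
Of these 18 sequences, 7 held none of the 4 marked words, while the last 4 were shown because they held the T-box core. None of the 8 strongest held that core, which was present at only 6 of all 897 summits (0.669%). Runs of A and T fill most of the lines, and the GC content of the 18 windows ran from 21.8% in the Smr peak with the T-box core to 43.6% in the Raf peak with the forkhead core.

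In their position the peaks filled the middle of a gradient. The intronic sequence that met the rule amounted to 22.8 Mb and held 39.3 summits per Mb (exact Poisson 95% interval 36.8 to 42.0), against 31.8 per Mb (30.8 to 32.9) in all other sequence of the 6 chromosome arms. Among the 1000 strongest peaks of the list this order was turned, with 7.02 summits per Mb in the eligible sequence and 7.56 elsewhere. Introns within 500 bp of a start held 145 summits per Mb (542 summits), and introns from 501 to 2000 bp held 70.6 per Mb (731 summits). Introns beyond 10000 bp held 14.4 per Mb (281 summits), exons 12.1 per Mb (405 summits) and intergenic sequence 35.9 per Mb (1578 summits). Intervals count peaks only, and none of these differences was tested, since peaks of 1 list are not replicates.

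Within the limits of the rule the density was lower farther from a start. It was 49.3 summits per Mb (43.2 to 55.9) from 2 to 3 kb, 41.0 from 3 to 4 kb, 33.6 from 6 to 7 kb and 27.8 (20.3 to 37.2) from 9 to 10 kb. The median distance was 4385 bp. Just outside the lower limit were a peak in Hr4 at 2000 bp with a signal of 109, a peak in Agpat2 at the same distance with 146 and a peak in CG43658 at 1998 bp with 127. Just inside it were peaks in oys and CHES-1-like, at the first base beyond 2000 bp, with signals of 259 and 155. At the upper limit the last peak inside was in Hr4 at 9977 bp with a signal of 671, and the next outside was in Efa6 at 10018 bp with a signal of 173.

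First introns held more of the peaks than their share of sequence. An intron that is the first of at least 1 transcript held 588 of the 897 summits (65.6%, 62.3 to 68.7%) in 48.7% of the eligible sequence. This gave 52.97 summits per Mb (48.8 to 57.4), against 26.4 per Mb (23.6 to 29.5) in introns that come later in every transcript, a difference that was likewise not tested. In first introns the density ran from 67.1 summits per Mb (57.8 to 77.6) at 2 to 3 kb to 39.3 (31.7 to 48.3) at 7 to 10 kb. Later introns held 26.6 per Mb (20.1 to 34.4) in the nearer range and 26.2 per Mb (20.9 to 32.5) in the farther.

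**Figure D1:**
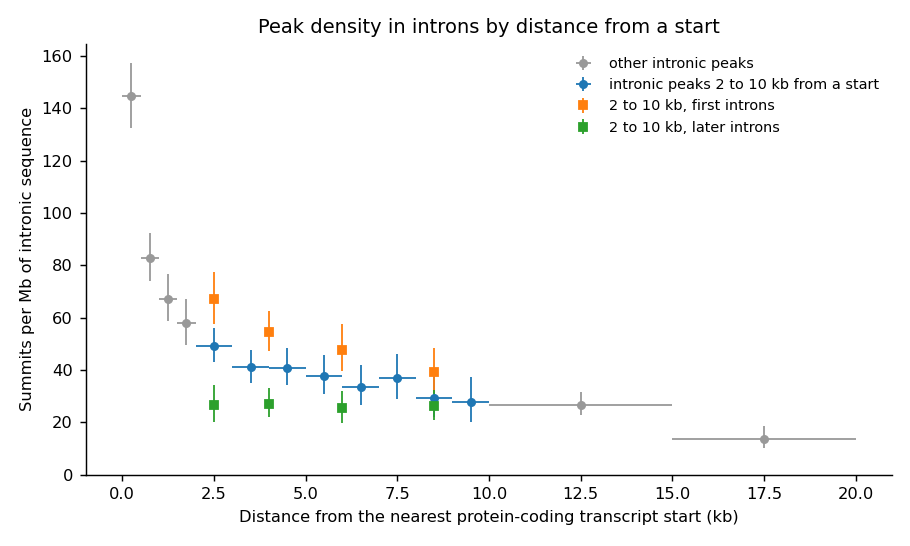
Summits per Mb of intronic sequence (vertical axis) against distance from the nearest protein-coding transcript start in kb (horizontal axis), with horizontal bars for the distance range and vertical bars for exact Poisson 95% intervals. Squares divide the peaks of 2 to 10 kb into first introns, which run from 67.1 to 39.3 per Mb, and later introns, which stay between 25.5 and 27.2 per Mb.

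The nearest start belonged to the gene that holds the peak for 714 of the 897 peaks (79.6%), and for 561 of these the peak lay downstream of that start. For the other 183 the nearest start was that of another gene, such as Ns1 next to the strongest peak in Dad. How much of the eligible sequence lies in the same way to its nearest start was not computed, so these counts have no background. The intron around a peak had a median length of 15317 bp. Density was lowest in introns of up to 5000 bp (23.1 per Mb) and between 36.7 and 48.4 per Mb in the longer classes. Non-coding RNA genes overlapped 28 of the summits, 43.4 per Mb (28.9 to 62.8), and 22 summits lay within 500 bp of the start of a non-coding transcript. Annotated transposable elements held 1 summit in 1.46 Mb, which is 0.684 per Mb (0.0173 to 3.81), a 134-signal peak in CG33298, against 42.0 per Mb outside them. Repeat-masked bases as a whole held 40.02 per Mb. Whether reads could be placed in transposable elements as well as elsewhere was not tested.

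The X chromosome held 46.2 of these summits per eligible Mb (40.2 to 52.8; 214 summits) and arm 2R held 43.5 (37.3 to 50.5). Arm 3L held 39.3, arm 2L 36.4 and arm 3R 34.8 per Mb (29.9 to 40.3). Neighbours in this order had overlapping intervals. Chromosome 4 held none in 0.329 Mb, where a count of 0, taken to allow up to 3 counts, allows up to 9.13 per Mb. The median spacing of neighbouring summits was 40429.5 bp. Some were close together, with 97 neighbouring pairs under 1000 bp apart, so that 1 stretch of bound DNA can count more than once.

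The signal value, the authors' own measure of peak height, ran from 100.7 to 1383 over the 897 peaks, with a median of 153 and quartiles of 120 and 233. Read counts were not part of the files, and sequencing depth is therefore unknown. The other 3537 peaks of the list had a median of 168 and reached 2560. Of the 100 strongest peaks of the list 6 were of this kind, of the 500 strongest 62, and of the 1000 strongest 160. A signal of 500 or more was found in 320 peaks of the whole list, 37 (11.6%) of them among the 897.

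The replicates ranked the same peaks differently. A peak was called strong in a replicate when it overlapped 1 of that replicate's 4434 strongest candidate regions, the same number as in the pooled list. Of the 897 peaks, 533 were strong in both replicates (59.4%, 56.1 to 62.7%), beside 61.5% of all 4434 peaks. Counting the peaks strong in both, replicate 1 held 730 of the 897 among its strong regions (81.4%, beside 82.9% of all peaks). Counted in the same way, replicate 2 held 685 (76.4%, beside 76.9%). Only 15 were strong in neither. Since the list was itself thresholded on the agreement of the replicates, these shares describe it and are not an independent check. The median signal was 90.4 in replicate 1 (889 peaks with a candidate region) and 71.4 in replicate 2 (887 peaks). Across the 879 peaks with a value in both, replicate 1 was the higher in 558 (63.5%), and the Spearman correlation of the 2 signals was 0.33, beside 0.38 over all peaks. Correlations over peaks are given as descriptions, since all peaks come from the same 2 libraries.

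The difference between the replicates went with base composition. The ratio of replicate 1 to replicate 2 signal had a Spearman correlation of −0.50 with the GC content at the summit (879 peaks, which share both libraries). Over the 4264 peaks of the whole list with a value in both, this correlation was −0.48. The 533 peaks strong in both had a mean GC content of 34.0% within 50 bp of the summit (SD 8.15 over peaks). The 197 strong in replicate 1 alone had 30.2% (SD 6.68) and the 152 strong in replicate 2 alone had 39.3% (SD 8.28). A peak in Dif with a summit GC content of 20.8% reached 515 in replicate 1 but 155 in replicate 2. A peak in S at 49.5% GC had 252 in replicate 1 and 397 in replicate 2. What made the libraries differ in this way was not tested.

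**Figure D2:**
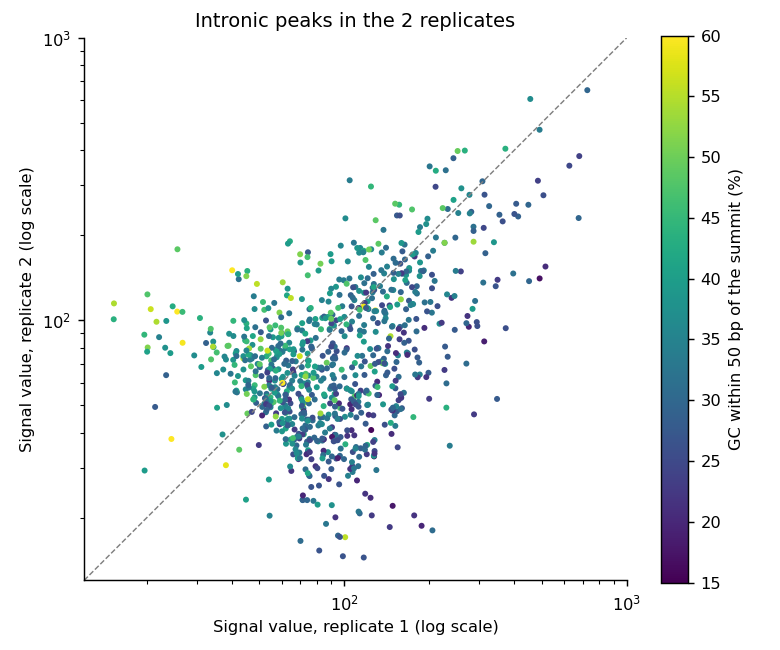
The authors' signal value in replicate 1 (horizontal axis) and replicate 2 (vertical axis), both on log scales, for the 879 intronic peaks with a value in both. Colour gives the GC content within 50 bp of the summit, and the dashed line marks equal signal. AT-rich peaks lie mostly below the line, on the side of replicate 1, and GC-rich peaks above it.

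The summits were AT-rich. Mean GC content within 50 bp of the summit was 34.0% (SD 8.37 over 897 peaks) and 42.8% (SD 7.01) in the windows centred 400 bp to either side. All sequence that met the rule had 39.8% GC, so the summits lay below it and the flanks above it. The other peaks of the list had 34.8% at the summit and 43.8% in the flanks. The dip was narrow, with a lowest 20 bp bin of 33.1% at the summit and a highest of 45.0% at 220 to 239 bp from it. Its depth differed between the replicates. When the rule was applied to the 4434 strongest regions of a single replicate, the summits were 10.9 percentage points lower in GC than their flanks in replicate 1 and 3.68 points lower in replicate 2.

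Forkhead, TATA and GATA words were more frequent at the summits than in the flanks, and GAGA words less frequent. The same directions were found over all 4434 peaks. Each of 30 words, most of them known as binding sites of transcription factors, was sought on both strands within 50 bp of every summit. The same was done in a window of equal width centred 400 bp to a side drawn at random per peak. A two-sided exact McNemar test compared the windows, with Benjamini-Hochberg adjustment over the 30 words. At an adjusted p under 0.05, 4 words (13.3% of those tested) were more frequent at the summits and 1 (3.33%) was less frequent. Over all 4434 peaks these counts were 8 (26.7%) and 7 (23.3%), with more peaks behind each test. The test takes peaks as independent, although they come from the same 2 libraries and close neighbours can share a flank, so its p values may be too small.

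The forkhead core TGTTTA, bound by winged-helix (forkhead) factors, was present at 171 of 897 summits (19.1%, 16.5 to 21.8%) and in 88 flanks (9.81%; exact adjusted p = 6.17e-07). The longer forkhead word TGTTTAC was present at 57 summits (6.35%) and in 20 flanks (2.23%; exact adjusted p = 9.10e-05). Of all windows of this width in the eligible sequence, 10.4% held the core and 2.17% the longer word. The core contains no more than the first 6 letters of the longer word, so the 2 results share matches. With flanks 800 bp away in place of 400 bp, 14.0% of flanks held the core (exact adjusted p = 0.0449) and 3.12% the longer word (exact adjusted p = 0.0137). Among the 8 strongest sequences printed above, the Raf peak with the second-highest signal in that gene held it, on the minus strand. The TATA word TATAAA was present at 172 summits (19.2%) and in 98 flanks (10.9%; exact adjusted p = 1.45e-05), beside 12.9% of all eligible windows and 13.5% of the flanks at 800 bp (exact adjusted p = 0.0137). The GATA core GATAA, read by GATA zinc-finger factors, was present at 217 summits (24.2%) and in 167 flanks (18.6%; exact adjusted p = 0.0275), beside 18.9% of all eligible windows. With flanks 800 bp away the GATA core stood at 217 summits and in as many flanks (exact adjusted p = 1.00), and the call was lost.

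The word GAGAG, known from GAGA factor sites, was less frequent at summits than in flanks, at 94 summits (10.5%) and in 146 flanks (16.3%; exact adjusted p = 0.00267). Its share at summits was close to the 11.1% of all eligible windows, and it was the flanks that lay above that level. With flanks 800 bp away the exact adjusted p was 0.633.

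The T-box words were rare at these summits. The core AGGTGTG was present at 6 of 897 summits (0.669%, 0.246 to 1.45%) and in 12 flanks (1.34%; exact adjusted p = 0.420), beside 0.754% of all eligible windows and 0.586% of all 4434 summits. The longer word AGGTGTGA was found at 3 summits and the shortened word GGTGTGA at 6, with 4 and 9 flanks (exact adjusted p = 1.00 and 0.802). The 6 peaks with the core lay in Pgant5 (signal 259), Abd-B (216), Smr (206), CG6051 (191), sdt (123) and luna (114). None was among the strongest 1000 peaks of the list, where 17.8% of the 897 peaks lay. The median signal of the 6 was 198, beside 153 for the 891 peaks without the core. A match or its absence in these windows says nothing by itself about where the protein bound.

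Of the other 22 words, those nearest to the threshold were the homeodomain word TAATTA (85 summits, 58 flanks), the GATA word AGATAAG (19 and 7) and the repeat CACACACA (21 and 39), each with an exact adjusted p of 0.109. The E-box CAGCTG stood at 24 summits and in 41 flanks (exact adjusted p = 0.155), CACGTG at 5 and 14 (0.173), CAGGTG at 24 and 36 (0.286), CATATG at 35 and 24 (0.345) and CATCTG at 31 and 25 (0.698). E-boxes are read by basic helix-loop-helix factors, among them the mesoderm factors twi and nau. The MEF2 word, CTA and TAG with any 4 bases between, stood at 14 summits and in 11 flanks (exact adjusted p = 0.863), and the NK-2 word CACTTGA, read by factors such as tin and bap, at 20 and 20 (exact adjusted p = 1.00). The exact adjusted p was 0.157 for the Su(H) word GTGGGAA (6 summits, 16 flanks), 0.182 for the POU word ATGCAAAT (25 and 13) and 0.286 for the Ets word CCGGAAG (1 and 6). It was 0.345 for the STAT word TTCNNNGAA (29 and 19), 0.595 for the TCF word CTTTGAT (19 and 13) and 0.595 for the CRE word TGACGTCA (1 and 4). It was 0.661 for a run of 8 A bases (71 and 81), 0.802 for the Pbx/Hox word TGATTNAT (34 and 29) and 0.872 for the Zelda word CAGGTAG (3 and 5). It was 0.913 for the AP-1 word TGANTCA (27 and 30) and 1.00 for the SMAD word GTCTAGAC (1 and 1). The DREF word TATCGATA, known from promoters of housekeeping genes, was at 0 of the 897 summits, which on the same limit of 3 counts allows a share of up to 0.334%. Of all eligible windows 0.199% held it. It was at 3 of the 1554 other intronic summits (0.193%) and at 38 of all 4434 summits (0.857%). None of the 30 words was present at 216 of the 897 summits.

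Words of 6 bases showed the base composition of the summits. Of 2080 words and their reverse complements, 198 (9.52%) were more frequent at summits and 279 (13.4%) less frequent (exact McNemar test, adjusted over all 2080). Of the 36 words made of A and T alone, 33 were higher at the summits, and 276 of the 279 lower words had 3 or more G or C bases. The lowest p values belonged to AAATAT (34.7% of summits, 14.4% of flanks), ATTTTA (26.3% and 11.7%), TAAATA (29.5% and 14.3%), TTAAAA (28.2% and 13.9%) and ATATTA (20.2% and 7.92%). They were followed by AATATA (21.2% and 8.81%), ATTTAA (25.4% and 12.04%), AATATT (19.3% and 7.69%), TATTAA (18.3% and 6.91%) and TTTAAA (18.8% and 7.47%).

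Read against words of the same composition, TATAAA did not stand out. Its ratio of summit to flank share was 1.76, rank 19 of the 36 words of A and T alone. The forkhead core had a ratio of 1.94, rank 48 of the 192 words with 1 G or C. The highest ratio among those 192 was that of TCTTAA, at 10.4% of summits and 2.68% of flanks (ratio 3.88, exact adjusted p = 5.49e-09). The words AACATA (13.8% and 4.35%) and AACTTC (8.92% and 2.45%, exact adjusted p = 2.60e-07) also had ratios above 3. These last words were chosen after their values were seen.

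The words also went with the replicates. Of the 152 peaks strong in replicate 2 alone, 13 held TGTTTAC (8.55%) and 15 held TATAAA (9.87%). Of the 197 strong in replicate 1 alone, 6 held TGTTTAC (3.05%) and 45 held TATAAA (22.8%). Among the 533 strong in both, the shares were 7.13% and 20.3%. Peaks with TGTTTAC had a median signal of 178 (57 peaks) and those without it 152 (840 peaks), with quartiles that overlapped widely.

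**Figure D3:**
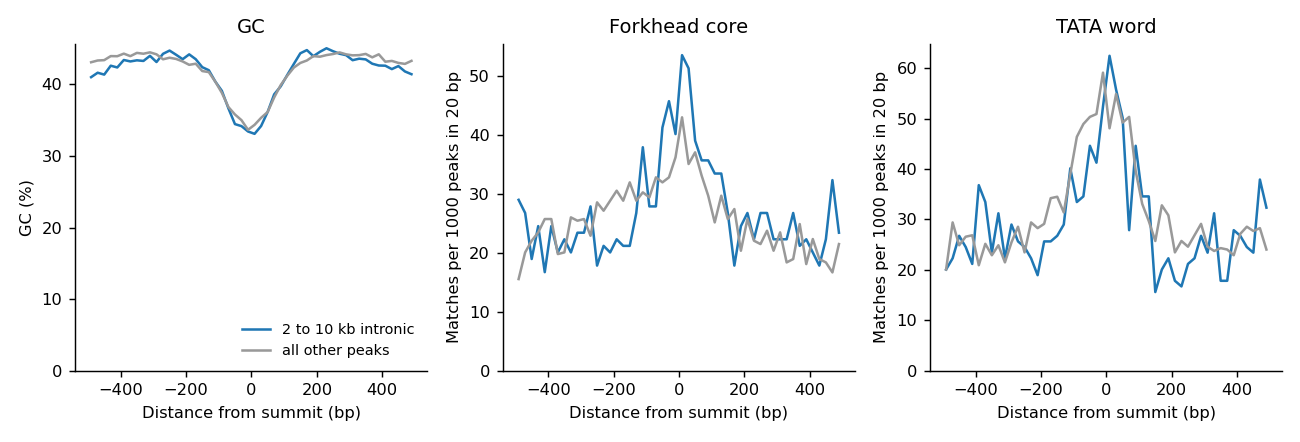
GC content in percent (left), matches to the forkhead core (middle) and matches to the TATA word (right) per 1000 peaks in bins of 20 bp (vertical axes) against distance from the summit (horizontal axes), for the 897 intronic peaks and for the other 3537 peaks. GC is lowest at the summit, at 33.1%, where the forkhead core reaches 53.5 and the TATA word 62.4 matches per 1000 of the intronic peaks.

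The 897 peaks lay in 539 protein-coding genes, which is 12.4% of the 4350 genes with eligible sequence. The share was higher the more eligible sequence a gene held. It was 0.998% of genes with up to 2000 bp, 13.3% in the next class, up to 5000 bp, 20.4% in the class up to 10000 bp, 32.3% in the class up to 20000 bp and 49.8% above that. A single peak was found in 327 genes, 2 peaks in 118 and 3 or 4 in 74. The 20 genes with 5 or more held 119 of them.

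The strongest of all the peaks was in Tlk, the Tousled-like kinase (chrX:3742014-3742406), with a signal of 1383 in the pooled list, 725 in replicate 1 and 652 in replicate 2. The next was in CG12769 (chr2R:8060817-8061213) with 1072, and 679 and 381 in the replicates. Raf, the kinase that passes the Ras signal to the MAP kinase cascade, held peaks of 1063 (455 and 607) and 775 (372 and 405). A peak of 978 (491 and 472) lay in CG32486, and one of 977 (626 and 352) lay in an intron shared by the overlapping genes CG46321, CG12912 and Hr3.

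Peaks in simj, Gug, trx, Smr and Hr4 followed. The peak in simj, a subunit of the NuRD complex, had a signal of 888 with 676 in replicate 1 and 230 in replicate 2. Gug, the co-repressor Atrophin, had 800 (485 and 312), trx, a histone H3 methyltransferase, 778 (507 and 277), and Smr, a co-repressor of nuclear receptors, 701 (448 and 256.2). Hr4, a nuclear receptor of the ecdysone response, held peaks of 671 (267 and 399) and 618 (308 and 310). In the simj, Gug, trx and Smr peaks replicate 1 was higher, and in both Hr4 peaks it was not.

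The rest of the 20 strongest were in CG9328 (668), Dif (657), Pits (649), Dad (646), S (641), aos (617), Kdm2 (603) and Dys (600). Dif is an NF-kappa-B factor of immunity, Kdm2 a histone demethylase and Dys the fly dystrophin. S is needed to export the EGFR ligand, and aos is a secreted inhibitor of the same receptor. All 20 were strong in both replicates, as were 98.7% of the 225 peaks with the highest signal among the 897. Since these peaks were picked by pooled signal, which comes from the same 2 replicates, this is not separate support for them. Of the 20, 15 lay in an intron that is the first of some transcript, beside 65.6% of all 897. Replicate 1 was higher in 14 of the 20, beside 63.5% of the 879 peaks with a value in both. The mean summit GC content of the 20 was 30%.

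The genes with the most peaks were shn with 10, Raf with 9, px with 8 and ush with 7. CG1677, tou, Ptp61F, RhoGAP19D and tna held 6 each, and Smr led a group of 11 genes with 5. Among the genes with 6 or more, summits per Mb of eligible sequence ran from 85.3 in Ptp61F to 474 in Raf. In Raf 6 of the 9 peaks lay in the 8630 bp after the start, with signals of 1063, 291, 775, 198, 343 and 383 in the order of transcription, and the other 3 (122, 194 and 256.2) lay beyond 20 kb. In shn, a zinc-finger cofactor of the BMP Smads, the 2 strongest (479 and 469) lay close together, at 35929 and 35689 bp from the 5′ end of the gene. In px, a gene of wing-vein patterning, signals ran from 103 to 273 and 5 of the 8 peaks lay in intron 12 of 13. In tna all 6 peaks were in intron 1 and between 127 and 153 in signal, with no candidate region of replicate 2 under 2 of them. In tou the highest was 285 and in Ptp61F, which overlaps ru, 253. In CG1677 it was 334 and in RhoGAP19D 230.

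**Figure D4:**
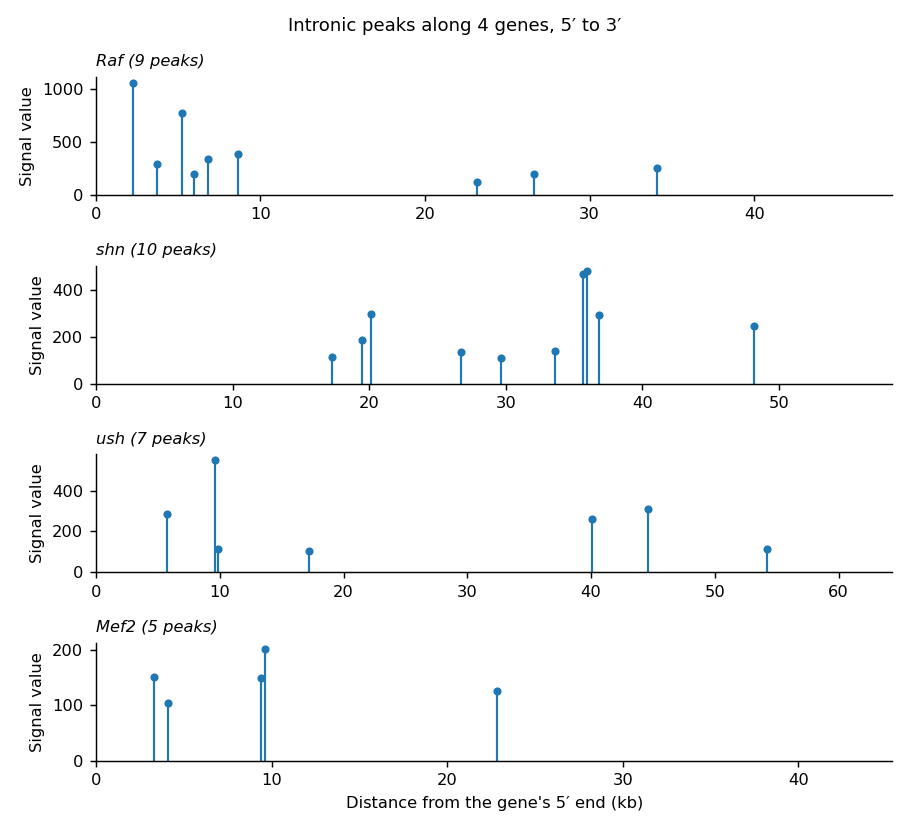
The authors' signal value of each intronic peak (vertical axes) along Raf, shn, ush and Mef2 (horizontal axes, distance from the 5′ end of the gene in kb, drawn over the full length of each gene). Raf carries its 2 strongest peaks, 1063 and 775, within 5229 bp of its 5′ end, whereas those of shn reach 479 at 35929 bp.

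Gene lists were described by the number of genes with a peak and by summits per Mb of eligible sequence, beside 39.3 per Mb over all eligible sequence. The lists were small, their intervals count summits only, and no list was tested. Summits of close or overlapping peaks count separately. The EGFR and FGFR list, which covers ligands, receptors and feedback inhibitors of both receptor tyrosine kinases, had a peak in 9 of 17 genes and 126 summits per Mb (80.1 to 190). Downstream of the receptors were Raf and the Ets factors aop and pnt. The repressor aop held 4 peaks, the highest of 423 (174 in replicate 1 and 247 in replicate 2), and the activator pnt 1 of 129. The inhibitors aos and sty held 1 each, of 617 and 145. Of the ligands and their processing, bnl (195), ths (166) and ru (161, the highest of 2) had peaks, and Egfr itself held 3, the highest of 148. Without Raf the list stood at 85.8 per Mb (46.9 to 144).

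The BMP list had a peak in 5 of 12 genes and 192 summits per Mb (119 to 294). The ligand dpp held 1 peak of 271 (127 and 134 in the replicates), the extracellular antagonist sog 3 with the highest at 240, and the receptor tkv 3 with the highest at 184. Inside the cell were shn with 10 and Dad, the inhibitory Smad, with 4. The Dad peaks had signals of 646, 240, 147 and 107, and the first 2 lay at 11137 and 11337 bp from the 5′ end of the gene. Without shn the list stood at 138 per Mb (69.1 to 248).

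In the Wnt and Hedgehog list 8 of 17 genes held 15 summits (76.3 per Mb, 42.7 to 126), spread over receptors and antagonists. The strongest were in nkd, a feedback antagonist of wingless (290), arr, the LRP co-receptor (254, with 2 more), and fz (246, with 2 more). In ptc, the Hedgehog receptor, the higher of 2 was 173. The list stood at 64.7 per Mb (33.4 to 113) without arr. The Notch list had 3 of 10 genes and 51.3 per Mb (18.8 to 112). There mam, the co-activator of the Notch complex, held 4 peaks, the highest of 541 (396 and 146), fng, which glycosylates Notch, held 1 of 166, and N itself 1 of 123. Without mam the list stood at 24.4 per Mb (2.95 to 88.0). When only the strongest 4434 regions of replicate 1 were used, 1 of the 10 Notch genes held all 8 summits (68.4 per Mb).

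Stress regulators had a peak in 4 of 10 genes and 109 summits per Mb (52.3 to 200). The JNK phosphatase puc held 5, with signals of 400 (248 and 149), 308, 192, 181 and 103. The tendon factor sr held 1 of 153, cnc, the fly Nrf factor, 1 of 125, and Atf3 3. The list stood at 62.5 per Mb (20.3 to 146) without puc. The forkhead list (2 of 7 genes, 158 per Mb, 51.3 to 369) rested on CHES-1-like with 4 peaks, the highest of 348 (138 and 209), and jumu with 1 of 304 (181 and 124). Without CHES-1-like it was 42.1 per Mb (1.07 to 235). The GATA list (2 of 6 genes, 146 per Mb, 63.0 to 288) rested on ush, the cofactor of the GATA factor pnr, with 7 peaks, the highest of 551 (211 and 338), and grn, a GATA factor, with 1 of 125. Without ush it was 47.7 per Mb (1.21 to 266).

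Nuclear receptors and ecdysone genes held a peak in 6 of 18 genes and 62.6 summits per Mb (38.2 to 96.6). Hr3 and Hr4 led, with 3 and 5 peaks, followed by Eip74EF (2, the highest 263), ftz-f1 (3, 259), Eip75B (5, 251) and the receptor EcR itself (2, 242). Of the chromatin list 4 of 20 genes held a peak (67.9 per Mb, 24.9 to 148). They were trx, and the Polycomb-group genes Psc (243), ph-p (167) and psq (153).

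The 6 lists of muscle and mesoderm genes had 29 summits in 16 of 69 eligible genes (23.2%), 34.3 per Mb (23.0 to 49.3), near the value of all eligible sequence. The level differed between the lists, and the number of summits behind each was small. Body-wall muscle identity genes had a peak in 2 of 17, kn (127; 40.5 in replicate 1 and 87.9 in replicate 2) and nau, the fly MyoD (116; 75.4 and 38.0), at 16.1 per Mb (1.95 to 58.1). The visceral mesoderm list had 2 of 12, Fas3 with 2 peaks (232 and 179) and pnt, at 24.3 per Mb (5.01 to 70.98). The heart and alary muscle list had 5 of 20 at 26.4 per Mb (9.69 to 57.5), namely sli, the Robo ligand (219 and 118), Abd-B (216), Antp (181), ths (166) and kon (121). The muscle structure list had 1 of 15, rhea, which encodes talin (165 and 114), at 16.9 per Mb (2.05 to 61.2). Several of these counts differed in the strongest 4434 regions of a single replicate. Either replicate alone gave 1 of 17 muscle identity genes (8.05 per Mb) and 2 of 15 muscle structure genes (16.9 per Mb in replicate 1 and 25.4 in replicate 2). Replicate 1 alone gave 2 of 20 heart and alary muscle genes and replicate 2 alone 5.

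The early mesoderm list stood higher, at 66.4 per Mb (24.4 to 144) and 2 of 6 genes. In how, an RNA-binding protein of muscle and tendon, the peak had a signal of 331, with 164 in each replicate. Mef2, the factor that drives muscle differentiation, held 5 peaks, all in intron 1 and 2 of them in overlapping regions. Their signals were 203 (83.3 in replicate 1 and 118 in replicate 2), 151 (no candidate region in replicate 1, 131 in replicate 2), 149 (71.4 and 83.6), 125 (38.1 and 72.6) and 104 (69.7 and 32.5). Replicate 2 was the higher in 3 of the 4 Mef2 peaks with a value in both. Without Mef2 the list stood at 16.4 per Mb (0.416 to 91.4).

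Genes of myoblast fusion had a peak in 4 of 10 and 41.6 summits per Mb (19.97 to 76.6). The adhesion protein kirre, which marks founder cells, held 4, with signals of 509 (210 and 297), 226, 112 and 102. The Arf exchange factor siz held 4 with the highest at 287 (175 and 114), the Rac exchange factor mbc 1 of 199 and the adapter rols 1 of 142. Genes of integrins and muscle attachment had a peak in 6 of 17 (82.7 per Mb, 41.3 to 148). The alpha integrin mew held 5, with signals of 304, 266, 259, 106 and 100.9, Tsp, an integrin ligand of tendon cells, 2 with the highest at 246, sr 1, the alpha integrin if 1 of 152, kon 1 and Lrt 1 of 102. Without mew the list stood at 56.9 per Mb (20.9 to 124).

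org-1 itself held no peak of the list inside the gene, with 2.70 kb of eligible sequence. slou, lbe and tup held none either, with 5.40, 2.14 and 14.99 kb, and lbl held 1 peak of the whole list that did not meet the position rule. At 39.3 summits per Mb, stretches of this size often hold none.

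**Figure D5:**
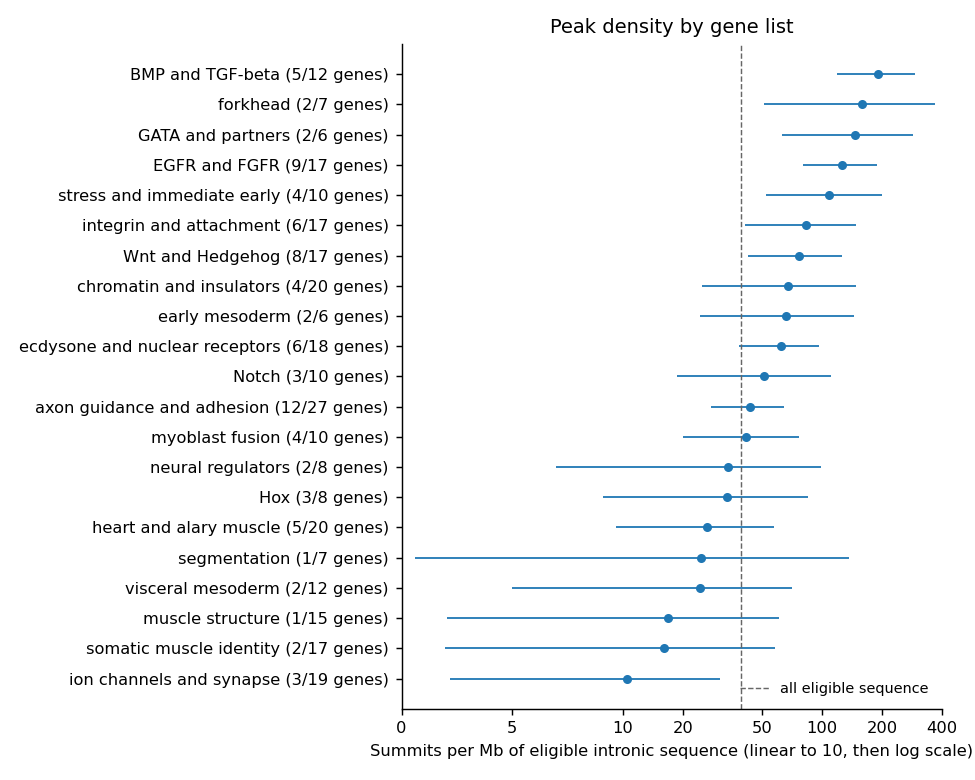
Summits per Mb of eligible intronic sequence (horizontal axis, linear to 10 and then on a log scale) for 21 gene lists, with exact Poisson 95% intervals and, in brackets, the genes with a peak of those with eligible sequence. The dashed line marks the 39.3 per Mb of all eligible sequence. The BMP list is the highest at 192 and the list of ion channels the lowest at 10.5.

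Of the other lists, axon guidance and adhesion had a peak in 12 of 27 genes and 43.5 summits per Mb (27.8 to 64.7), led by the netrin receptor fra with 4 (the highest 403, with 151 and 259 in the replicates), caps with 3 (258) and Fas3. Hox genes had 3 of 8 and 33.4 per Mb (9.11 to 85.6), with Abd-B, Antp and 2 peaks in lab (183 and 181). In lab replicate 2 was higher in both (134 and 106, against 49.1 and 63.9). Neural regulators had 2 of 8, fne (181 and 117) and pros (105), and segmentation genes 1 of 7, cad (291). Replicate 1 alone gave 2 of 8 Hox genes (16.7 per Mb), either replicate alone gave 1 of 8 neural regulators, and replicate 2 alone gave 4 of 7 segmentation genes (98.3 per Mb). Ion channels and synapse genes had 3 of 19 and 10.5 per Mb (2.17 to 30.8), each with a single peak, in Shal (289), dnc (253) and Shab (108). None of the 23 ribosomal protein genes listed had eligible sequence.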

How the data were processed

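Peaks of org-1 ChIP-seq from 2 biological replicates of 1 group were used. Per the file descriptions, the authors deposited regions derived from alignments of a library and of a control. For every region the authors deposited the signal, the −log10 of a q value and how far the summit lies from the region's start. Aligner and peak caller: not given in the sources used here. The authors deposited 30000 candidate regions per replicate and an optimal list thresholded on agreement between the replicates. The unit of the signal is the authors' own. Depth is unknown, because no read counts were given.

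Summits were placed on gene models of Ensembl release 115 (BDGP6.54) and genome release 6, whose arms hold every dm6 region. Positions are given from 1. Distances run to the nearest start of a protein-coding transcript. Replicate signals come from the candidate region with the nearest overlapping summit. Of 372 listed symbols 369 were matched, 14 of them through older names. Words were compared by exact McNemar tests (scipy 1.17.1, Python 3.11.15) with Benjamini-Hochberg adjustment, which was also tested on simulated data. The simulated summits and flanks had the same base composition, unlike the real ones, so the simulation does not cover the GC difference between them. Intervals are exact at 95% and cover counting error only.

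Members and lists were chosen with earlier results of these data known. The genes named are hosts of the 20 strongest peaks, the 10 genes with most peaks, up to 3 genes per list with the highest signal, and org-1, slou, lbe, lbl, tup and Mef2. All 30 words and the 10 words of 6 bases with the lowest p are named. Other list genes with a peak were named after their values were seen. Alternatives covered the position rule, each replicate alone, the strongest 1000 peaks, overlap, windows and flanks.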

Additional observations from a re-analysis of the deposited data

How the results depend on the processing

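The peaks that met the rule made up 20.2% of the list. The share was 16.0% among the 1000 strongest, 29.3% with a lower limit of 1 kb and 24.7% with an upper limit of 20 kb. It ran from 18.8 to 19.6% in a replicate alone and stayed within the interval of the main value with all annotated genes, with region midpoints and with 1 summit per region. The density in eligible sequence was 1.24 times that elsewhere. Among the 1000 strongest peaks it turned to 0.928 times, and in a replicate alone it was 1.13 to 1.19 times. Strong regions of both replicates covered 55.6% of the peaks with an overlap of 50% and 49.7% with summits within 100 bp, in place of 59.4%. The ratio of the median signal to that of the other peaks was 0.912, and 0.925 to 0.997 in a replicate alone. The GC difference between summit and flanks was −8.79 points, and −10.9 to −3.68 in a replicate alone. Of words of 6 bases, 198 were higher and 279 lower. The counts were 105 and 95 in windows of 25 bp either side and 83 and 54 with flanks 800 bp away. They ran from 103 to 206 higher and from 98 to 293 lower in the peaks of the pooled list strong in a given replicate. These sets, 730 peaks for replicate 1 and 685 for replicate 2, share 533 peaks. With the lower-coordinate flank 2 motifs were less frequent at summits, with flanks 800 bp away 0 were, and 1 to 2 were in these sets of peaks strong in a given replicate. At that distance, 3 motifs were higher. Host genes were 12.4% of those eligible, 11.9 to 11.98% in a replicate alone and 3.10% among the 1000 strongest, which hold fewer peaks by construction. The GATA core missed the threshold in the peaks strong in replicate 2 (24.7% against 18.7%, exact adjusted p = 0.0554), and GAGA in windows of 100 bp (24.6% against 29.7%, 0.0715), both with differences near the main ones. Calls were gained by the homeodomain word (exact adjusted p = 0.0169 with the higher-coordinate flank and 0.00172 in the peaks strong in replicate 1) and by the CA repeat, lower at summits (0.00829 in windows of 100 bp, 0.0357 with the lower-coordinate flank and 0.00468 in the peaks strong in replicate 1). The alternatives by replicate only left out peaks of the pooled list and kept its summits. They cannot show whether the words are more frequent at a replicate's own summits. With this limit, the forkhead and TATA words passed the threshold under all 7 alternatives. The forkhead core did so at an exact adjusted p of 0.0449 with flanks 800 bp away, where its difference was 5.02 points in place of 9.25. The cause of these changes was not tested. List densities without their leading gene were added after the data were seen. The support of peaks by both replicates has no value in a replicate alone. No paired analysis was possible because the 2 replicates form 1 group.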

Other observations

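Some genes outside the lists held several of the peaks. The genes tara, apt, Pdp1, CG46385 and spri held 5 each, at 210, 246, 155, 207 and 135 summits per Mb of their eligible sequence. The factor apt is known from tracheal and heart development and the bZIP factor Pdp1 from muscle. These genes were chosen after their values were seen, and their densities were not tested.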
